A study of Danio rerio with 12 samples.

Results

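Described here are 44 genes and loci of the citrate cycle (TCA cycle) in RNA-seq libraries of whole zebrafish larvae. They are entries that the deposited annotation places on the KEGG map of the cycle. The rule that picks them uses annotation and not their values, but it was set with earlier results of these data known. The table of 44667 genes and loci names 52 entries on that map. Of these, 8 were left out: the succinate dehydrogenase genes sdha, sdhb, sdhc, sdhda and sdhdb, the phosphoenolpyruvate carboxykinase gene pck1, and aclya and aclyb, which were taken as the ATP citrate lyase gene acly that the choice of members excludes. Among the 44 members, 29 are Ensembl genes and 15 are loci with the prefix MSTRG, which have no Ensembl identifier and carry only an annotation by protein similarity. There are 4 members annotated as succinate dehydrogenase subunits under other names. Of these, si:dkey-31b16.7, MSTRG.36713 and MSTRG.36714 were listed at 0 in all 12 libraries, and MSTRG.36724, which has the same best protein match as sdhc, was present in all of them.

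The larvae were wild type and 4 days post fertilisation, and each of the 4 groups had 3 libraries (n = 3). The OBS30 group was exposed to 30 mg/L OBS (replicates 1, 3 and 4), the OBS20 group to 20 mg/L OBS (replicates 1, 2 and 3) and the PFOS20 group to 20 mg/L PFOS (replicates 2, 3 and 4), and the control group was untreated (replicates 2, 3 and 4). PFOS is perfluorooctane sulfonate, a persistent fluorinated surfactant, and the series title names OBS as an emerging alternative to it. The labels give no solvent, exposure time or number of larvae per library, and do not say whether replicates came from separate clutches, so the p-values measure only the spread between these libraries.

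The citrate cycle runs in the mitochondrial matrix, where it oxidises acetyl-CoA to CO2 and passes the electrons to NADH and ubiquinol for the respiratory chain. Pyruvate enters it as acetyl-CoA through the pyruvate dehydrogenase complex or as oxaloacetate through pyruvate carboxylase, and phosphoenolpyruvate carboxykinase takes oxaloacetate out again for glucose synthesis. The cycle works in nearly all cells of a larva, and its enzymes are known to be abundant in muscle, heart and liver.

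Expression was deposited as TPM, which gives each gene its share of the transcripts in a library after correction for length, and no read counts were used here, so the depth per library is unknown. A test needed 1 TPM or more in 3 or more libraries, which left 30674 entries in all and 41 of the 44 members, and the other 3 members were the 3 listed at 0. Below, a log2 change is a difference in mean log2(TPM + 1) between groups with its standard error, it understates the change of entries near 1 TPM, and an entry is called where the Benjamini-Hochberg adjusted p over all 30674 entries is below 0.05. The 3 comparisons with control share the same control libraries. The OBS20 replicate 3 library stood apart, with a median TPM of 1.27 over all entries against 1.57 to 2.33 in the other 11 libraries. Calls of single members that depend on it are given with and without it. Summed entries, lists of other genes and tissue markers are given only with it. Relative to control, the median log2 change of all tested entries was −0.13 in PFOS20 larvae, and median-of-ratios scaling moved it to 0.00.

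The 44 members together made up 0.429 ± 0.00888% of all TPM in OBS30 larvae, 0.417 ± 0.00786% in OBS20 larvae, 0.472 ± 0.0159% in PFOS20 larvae and 0.413 ± 0.0113% in control larvae (SD). The PFOS20 libraries, at 0.46% to 0.49%, all lay above the control libraries, at 0.401% to 0.424%. On the TPM scale, which allows genes to be compared per length, the highest level among the members was that of idh2, the mitochondrial NADP-dependent isocitrate dehydrogenase, at 776.1 TPM in control larvae. Next came MSTRG.11379, a locus of 382 bases annotated as an NADP-dependent isocitrate dehydrogenase, at 563.9 TPM, and mdh1aa, a cytosolic malate dehydrogenase, at 454.4 TPM. Of the tested Ensembl genes, aco1, pdha1b, suclg2 and ogdhl were below 10 TPM on average in control larvae.

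In PFOS20 larvae, genes of several steps of the cycle were higher than in control larvae. The members called higher were pdha1a and pdhb of pyruvate dehydrogenase, idh3a and idh3b of the NAD-dependent isocitrate dehydrogenase, idh2, suclg1 and sucla2 of succinate-CoA ligase, the fumarase gene fh, the malate dehydrogenase genes mdh2 and mdh1ab, and the loci MSTRG.34614 and MSTRG.36352. Those called lower were pck2 and the loci MSTRG.36288, MSTRG.37223 and MSTRG.38905. This is 12 of 41 tested members higher and 4 lower, against 6.35% and 11.9% of all tested entries, or 18.3% in either direction. The median log2 change of the members was 0.14, against −0.13 for all tested entries, and 24 of the 41 members had a positive change, against 39.4% of all entries. Among the 28 tested Ensembl genes 10 were higher and 1 lower, and among the 13 tested loci 2 were higher and 3 lower. Of all calls in this comparison 34.7% were higher, and this share was 50.1% under median-of-ratios scaling and 48.3% under quantile normalisation. Median-of-ratios scaling gave 15 members higher and 2 lower, against 11.7% of all entries in each direction. Quantile normalisation gave 18 higher and 3 lower, against 12.4% and 13.3% of all entries.

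The count of members called higher depended on single libraries, and the share of all entries called moved as well. It was 17 without OBS20 replicate 3, 7 without control replicate 2, 6 without control replicate 3, control replicate 4 or PFOS20 replicate 3, and 5 without PFOS20 replicate 4, and the count of members called lower was 6 without OBS20 replicate 3 and 2 without PFOS20 replicate 2 or any of the 3 control libraries. Of all entries, 9.22% were called higher without OBS20 replicate 3, and 4.45%, 4.2% and 4.03% without control replicate 2, 3 and 4. This share was 3.67% without PFOS20 replicate 3 and 4.83% without PFOS20 replicate 4. The share called lower was 19.2% without OBS20 replicate 3 and 6.27% without PFOS20 replicate 2. It was 7.43%, 7.04% and 6.82% without control replicate 2, 3 and 4. The calls of fh, idh2, idh3b, pdha1a, suclg1 and pck2 held with every library left out in turn. Under median-of-ratios scaling the calls of idh2, pdhb, mdh2, MSTRG.36288 and MSTRG.38905 were lost, and under quantile normalisation that of MSTRG.36288. With median-of-ratios scaling the log2 change was 0.52 for idh2, 0.43 for pdhb and 0.39 for mdh2, each larger than without it. It was −0.44 for MSTRG.36288 and −0.24 for MSTRG.38905, each smaller in size than without it.

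**Figure D1:**
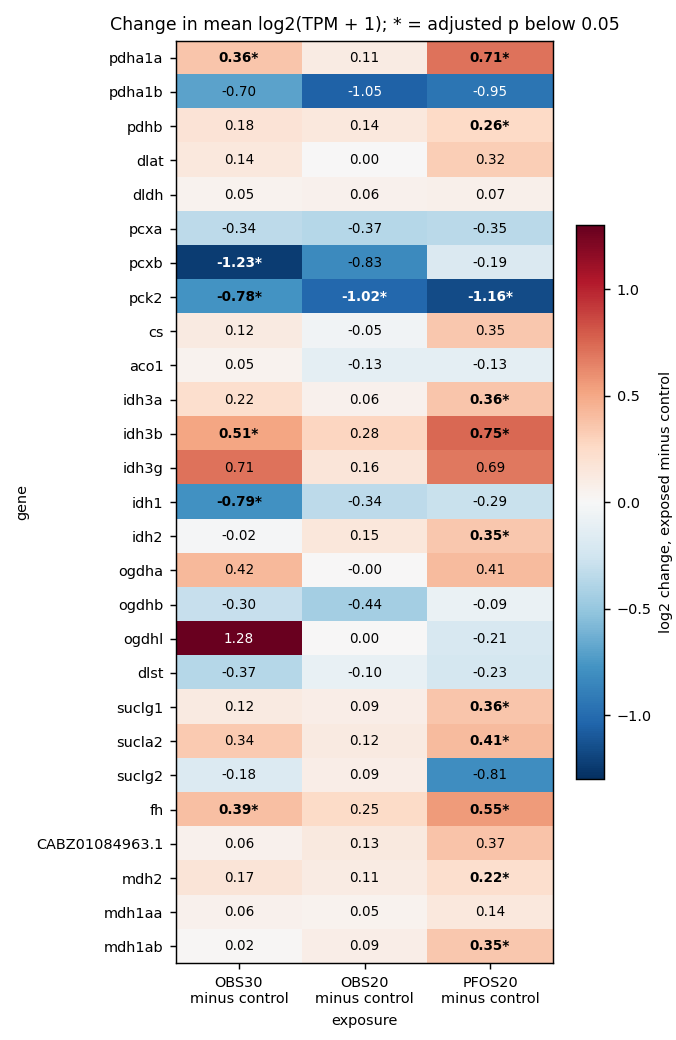
Log2 change in mean log2(TPM + 1) of 27 of the 28 tested Ensembl members in OBS30, OBS20 and PFOS20 larvae minus control larvae, ordered by step from pyruvate entry (top) to malate dehydrogenase (bottom), with red above 0 and blue below. A star and bold type mark adjusted p below 0.05. The PFOS20 column holds 11 stars, the OBS30 column 6 and the OBS20 column 1, at pck2.

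Pyruvate dehydrogenase joins glycolysis to the cycle. Its E1 alpha subunit gene pdha1a (ENSDARG00000012387) had 116, 125 and 121 TPM in OBS30 larvae, 109, 101 and 96.2 TPM in OBS20 larvae and 150.3, 159 and 156 TPM in PFOS20 larvae, against 100.2, 81.8 and 102 TPM in control larvae. The PFOS20 libraries lay above all others, and the OBS30 libraries lay above the control libraries. The log2 change was 0.71 ± 0.09 in PFOS20 larvae (adjusted p = 8.4e-04, a ratio of means of 1.64), 0.36 ± 0.09 in OBS30 larvae (adjusted p = 0.041) and 0.11 ± 0.09 in OBS20 larvae (adjusted p = 0.78). The OBS30 call held without OBS20 replicate 1 or OBS20 replicate 3 and was lost without any of the other 10 libraries, with an adjusted p of up to 0.14, reached without OBS30 replicate 3.

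The E1 beta subunit gene pdhb (ENSDARG00000021346) had 229, 214 and 206 TPM in OBS30 larvae, 199.6, 218 and 213 TPM in OBS20 larvae and 219, 231 and 235 TPM in PFOS20 larvae, against 194, 200.2 and 179 TPM in control larvae. Its PFOS20 libraries lay above the control libraries with a log2 change of 0.26 ± 0.07 (adjusted p = 0.032). The change was 0.18 ± 0.07 in OBS30 larvae and 0.14 ± 0.07 in OBS20 larvae, and neither was called. In PFOS20 larvae the call was lost without PFOS20 replicate 3 or 4 or any control library, with an adjusted p of up to 0.12. The E2 gene dlat and the E3 gene dldh, whose product also serves oxoglutarate dehydrogenase, were not called in any comparison. The log2 change of dlat in PFOS20 larvae was 0.32 ± 0.12 (adjusted p = 0.1), and without OBS20 replicate 3 it was 0.32 ± 0.08 and called (adjusted p = 0.02). For dldh the 3 log2 changes against control were 0.05 to 0.07.

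Several members are a pair of entries for the same protein, an Ensembl gene and a locus with the same best protein match, and the reads of such a pair may have been divided differently from library to library. This holds for 8 of the loci, which include loci of dlst, idh3g, pdha1a, pdha1b, pck2 and idh1. For pdha1a the paired locus is MSTRG.37223, which had 41.8, 40.4 and 43.2 TPM in OBS30 larvae, 47.4, 60.6 and 32.8 TPM in OBS20 larvae and 18.2, 26.6 and 27.5 TPM in PFOS20 larvae, against 40.8, 53.3 and 39.9 TPM in control larvae. It fell in PFOS20 larvae, where pdha1a rose, with a log2 change of −0.87 ± 0.22 (adjusted p = 0.02), and this call was lost without PFOS20 replicate 2 or control replicate 3 (adjusted p up to 0.076). The locus held 13.4 ± 2.24% of the summed TPM of the pair in PFOS20 larvae and 32.1 ± 6.33% in control larvae (SD). It held 25.7 ± 1.14% in OBS30 larvae and 31.1 ± 6.11% in OBS20 larvae.

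Summing each pair, which was done after the data had been seen, gave smaller pdha1a changes. The sum was 168, 185 and 184 TPM in PFOS20 larvae, against 141, 135 and 142 TPM in control larvae. All PFOS20 sums lay above the control sums, and the log2 change was 0.36 ± 0.09 (adjusted p = 0.019), against 0.71 for the gene entry alone. In OBS30 larvae the summed change was 0.22 ± 0.09 and no longer called (adjusted p = 0.18). The paralogue pdha1b is scarce: with its locus MSTRG.36288 it summed to 4.85 ± 1.07 TPM in OBS30 larvae, 4.48 ± 0.667 TPM in OBS20 larvae, 5.16 ± 1.72 TPM in PFOS20 larvae and 9.26 ± 1.04 TPM in control larvae (SD). That sum fell in OBS30 larvae by a log2 change of −0.82 ± 0.21 (adjusted p = 0.036) and in PFOS20 larvae by −0.77 ± 0.21 (adjusted p = 0.028). The change in OBS20 larvae was −0.91 ± 0.21 and not called (adjusted p = 0.07), and every exposed sum lay below every control sum.

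As a single entry, MSTRG.36288 had 2.73, 2.75 and 2.34 TPM in OBS30 larvae, 2.92, 3.24 and 2.33 TPM in OBS20 larvae and 3.62, 2.98 and 2.65 TPM in PFOS20 larvae, against 4.85, 4.77 and 5.62 TPM in control larvae. All 9 exposed libraries lay below the 3 control libraries. Its log2 change was −0.75 ± 0.15 in OBS30 larvae (adjusted p = 0.011), −0.67 ± 0.15 in OBS20 larvae (adjusted p = 0.064, not called) and −0.58 ± 0.15 in PFOS20 larvae (adjusted p = 0.024). The OBS30 call was lost without OBS30 replicate 4 or control replicate 4 (adjusted p up to 0.0554), and the PFOS20 call without PFOS20 replicate 3 or 4 or any control library (adjusted p up to 0.09).

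**Figure D2:**
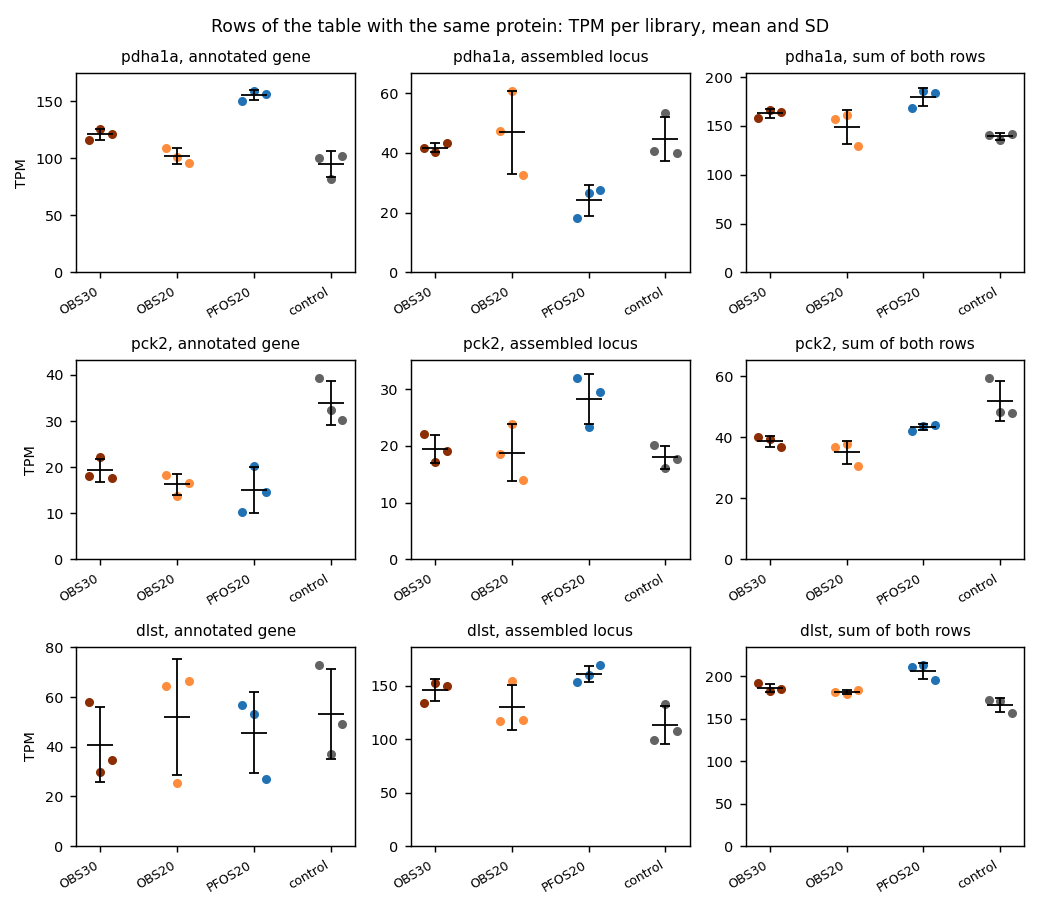
TPM per library (points) with group mean and SD (bars) for the Ensembl gene (left), the assembled locus with the same protein match (middle) and their sum (right) of pdha1a, pck2 and dlst in OBS30, OBS20, PFOS20 and control larvae. In PFOS20 larvae pdha1a is high while its locus is low, pck2 is low while its locus is high, and the sums differ less from control than the gene entries of pdha1a and pck2 do.

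The carbon that enters or leaves at oxaloacetate passes pyruvate carboxylase, encoded by pcxa and pcxb, and phosphoenolpyruvate carboxykinase, whose mitochondrial form is pck2. All 3 genes had negative log2 changes in all 3 exposures. The gene pcxb (ENSDARG00000051939) had 5.56, 5.09 and 4.89 TPM in OBS30 larvae, 7.31, 9.94 and 4.91 TPM in OBS20 larvae and 12.3, 10.3 and 12.5 TPM in PFOS20 larvae, against 14.8, 13.2 and 12.4 TPM in control larvae. The OBS30 values lay under all control values and under all PFOS20 values. The log2 change was −1.23 ± 0.20 in OBS30 larvae (adjusted p = 0.003, a ratio of means of 0.384), and this call held with every library left out in turn. It was −0.83 ± 0.20 in OBS20 larvae (adjusted p = 0.077) and −0.19 ± 0.20 in PFOS20 larvae (adjusted p = 0.55), neither of which was called. The paralogue pcxa averaged 12.9 ± 0.702 TPM in OBS30 larvae, 13.1 ± 4.13 TPM in OBS20 larvae, 12.9 ± 1.16 TPM in PFOS20 larvae and 16.6 ± 0.82 TPM in control larvae (SD), with log2 changes of −0.34, −0.37 and −0.35 that were not called. Without OBS20 replicate 3, pcxa was called lower in OBS30 larvae at −0.34 ± 0.09 (adjusted p = 0.038) and in PFOS20 larvae at −0.35 ± 0.09 (adjusted p = 0.021).

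The gene entry of pck2 (ENSDARG00000020956) was the only member called in all 3 exposures. It had 18.1, 22.2 and 17.6 TPM in OBS30 larvae, 18.3, 13.8 and 16.6 TPM in OBS20 larvae and 10.3, 20.3 and 14.5 TPM in PFOS20 larvae, against 39.3, 32.4 and 30.2 TPM in control larvae. Every exposed library lay below every control library. The log2 change was −0.78 ± 0.21 in OBS30 larvae (adjusted p = 0.0464), −1.02 ± 0.21 in OBS20 larvae (adjusted p = 0.043) and −1.16 ± 0.21 in PFOS20 larvae (adjusted p = 0.0043). The OBS30 call held without PFOS20 replicate 2, PFOS20 replicate 3 or OBS20 replicate 3 and was lost without any of the other 9 libraries (adjusted p up to 0.16, without control replicate 2). The OBS20 call held without PFOS20 replicate 2 or PFOS20 replicate 3 and was lost without any of the other 10 libraries (adjusted p up to 0.17, without control replicate 2).

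The locus paired with pck2, MSTRG.36352, had 22.1, 17.1 and 19.1 TPM in OBS30 larvae, 18.5, 24.0 and 13.99 TPM in OBS20 larvae and 32.0, 23.4 and 29.6 TPM in PFOS20 larvae, against 20.1, 16.0 and 17.8 TPM in control larvae. Its PFOS20 libraries lay above the control libraries, and it rose there with a log2 change of 0.62 ± 0.19 (adjusted p = 0.0449). This call was lost without any library but PFOS20 replicate 3, OBS20 replicate 2 and OBS20 replicate 3 (adjusted p up to 0.15, without PFOS20 replicate 2). The locus held 65.4 ± 11.1% of the pair's TPM in PFOS20 larvae and 34.7 ± 2.09% in control larvae (SD), with 50.2 ± 6% in OBS30 larvae and 53.1 ± 9.19% in OBS20 larvae. Summed, the pair had 40.2, 39.3 and 36.7 TPM in OBS30 larvae, 36.9, 37.8 and 30.6 TPM in OBS20 larvae and 42.3, 43.7 and 44.1 TPM in PFOS20 larvae, against 59.4, 48.4 and 47.9 TPM in control larvae. All exposed sums lay below all control sums. The summed log2 change was −0.41 ± 0.11 in OBS30 larvae (adjusted p = 0.0475) and −0.55 ± 0.11 in OBS20 larvae (adjusted p = 0.036), both called, but −0.25 ± 0.11 in PFOS20 larvae, which was not called (adjusted p = 0.15).

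Citrate synthase, the enzyme that condenses acetyl-CoA with oxaloacetate, is encoded by cs (ENSDARG00000103364), which had 117, 135 and 135 TPM in OBS30 larvae, 122, 132 and 93.2 TPM in OBS20 larvae and 139, 156 and 160.2 TPM in PFOS20 larvae, against 119.6, 122 and 114 TPM in control larvae. The PFOS20 libraries lay above the control libraries, and OBS20 replicate 3 was the lowest of the 12. For cs the log2 change was 0.35 ± 0.12 in PFOS20 larvae (adjusted p = 0.07), −0.05 ± 0.12 in OBS20 larvae (adjusted p = 0.93) and 0.12 ± 0.12 in OBS30 larvae (adjusted p = 0.65), none of which was called. Without OBS20 replicate 3 the PFOS20 change was 0.35 ± 0.08 and called (adjusted p = 0.011), and the OBS20 change was 0.10 ± 0.09. The gene aco1 of cytosolic aconitase, which turns citrate into isocitrate, was not called.

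The NAD-dependent isocitrate dehydrogenase is a main control point of the cycle, built from products of idh3a, idh3b and idh3g. The catalytic subunit gene idh3a (ENSDARG00000030278) had 83.0, 86.8 and 85.2 TPM in OBS30 larvae, 75.7, 84.5 and 69.0 TPM in OBS20 larvae and 88.3, 93.1 and 100.4 TPM in PFOS20 larvae, against 75.6, 74.0 and 69.1 TPM in control larvae. Its PFOS20 libraries lay above the control libraries with a log2 change of 0.36 ± 0.09 (adjusted p = 0.02). This call was lost without PFOS20 replicate 3 or 4 or control replicate 3 or 4 (adjusted p up to 0.076), and the changes of 0.22 ± 0.09 in OBS30 larvae and 0.06 ± 0.09 in OBS20 larvae were not called.

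The subunit gene idh3b (ENSDARG00000044753) had 63.2, 67.7 and 74.6 TPM in OBS30 larvae, 54.2, 71.1 and 50.8 TPM in OBS20 larvae and 80.2, 74.5 and 88.3 TPM in PFOS20 larvae, against 45.8, 51.1 and 46.1 TPM in control larvae. All PFOS20 and OBS30 values lay above all control values. The log2 change of idh3b was 0.75 ± 0.13 in PFOS20 larvae (adjusted p = 0.0032, a ratio of means of 1.7), 0.51 ± 0.13 in OBS30 larvae (adjusted p = 0.034) and 0.28 ± 0.13 in OBS20 larvae (adjusted p = 0.49, not called). The OBS30 call was lost without any OBS30 or control library (adjusted p up to 0.13). The regulatory subunit gene idh3g and its locus MSTRG.36084 were not called singly or as a sum, which averaged 42.7 ± 3.72 TPM in OBS30 larvae, 35.9 ± 7.48 TPM in OBS20 larvae, 44.2 ± 5.19 TPM in PFOS20 larvae and 35.9 ± 2.02 TPM in control larvae (SD). MSTRG.35655, a further locus annotated to this enzyme, was at 13.6 to 29.5 TPM in all libraries and was not called.

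**Figure D3:**
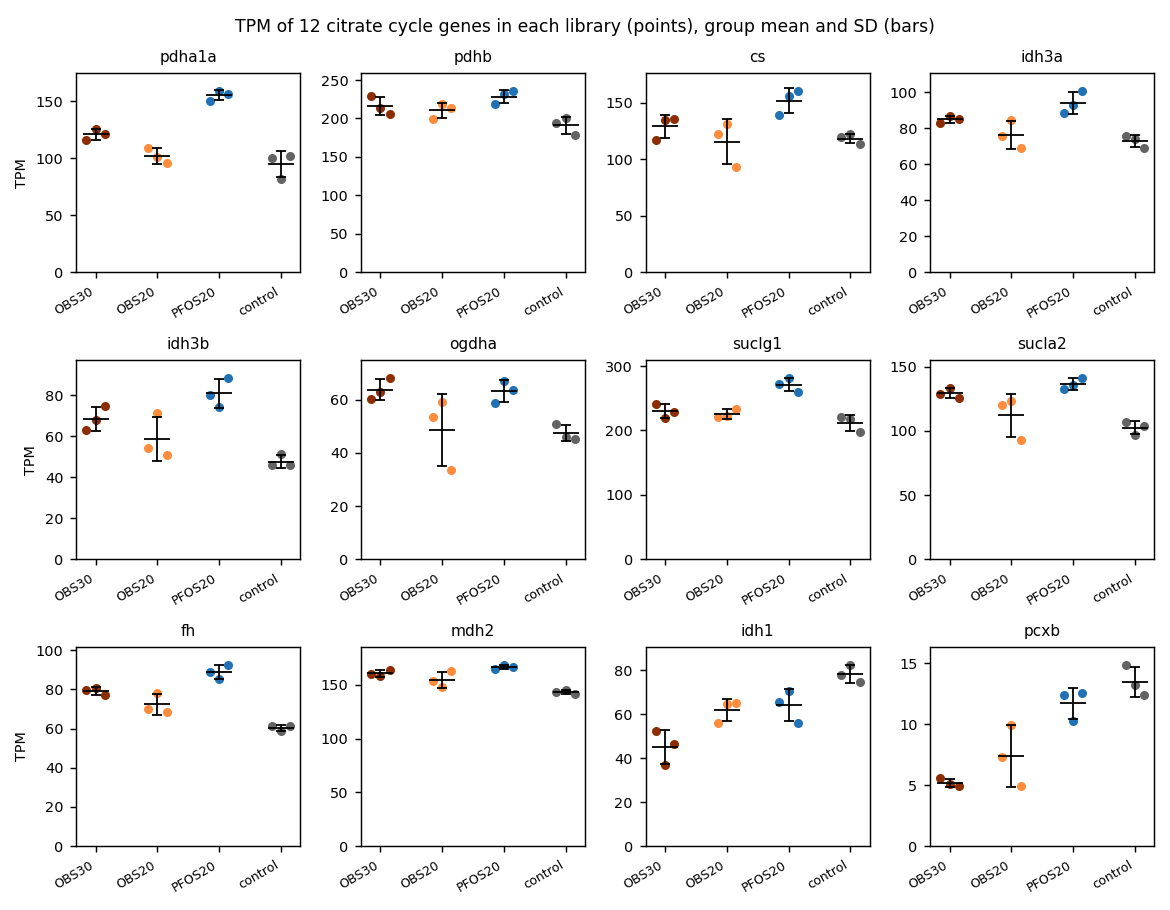
TPM of 12 members in each library (points) with group mean and SD (bars) in OBS30, OBS20, PFOS20 and control larvae, with every axis starting at 0. The PFOS20 points of pdha1a and fh lie above all other groups, those of idh3b lie above the control and OBS20 points, the OBS30 points of idh1 and pcxb lie below the control points, and OBS20 replicate 3 is the lowest point for cs, ogdha and sucla2.

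The NADP-dependent isocitrate dehydrogenases stand beside the cycle and supply NADPH, in the cytosol by idh1 and in mitochondria by idh2. The gene idh2 (ENSDARG00000003795) had 791, 752 and 750.1 TPM in OBS30 larvae, 817, 842 and 919 TPM in OBS20 larvae and 954, 1042 and 973 TPM in PFOS20 larvae, against 769.7, 790.4 and 768 TPM in control larvae. The PFOS20 libraries lay above all others. For idh2 the log2 change was 0.35 ± 0.06 in PFOS20 larvae (adjusted p = 0.0031), 0.15 ± 0.06 in OBS20 larvae (adjusted p = 0.41) and −0.02 ± 0.06 in OBS30 larvae (adjusted p = 0.89). Under median-of-ratios scaling the PFOS20 change was 0.52 and not called (adjusted p = 0.0535). The short locus MSTRG.11379 of this enzyme averaged 529.5 ± 24.2 TPM in OBS30 larvae, 431.6 ± 32.1 TPM in OBS20 larvae, 456.1 ± 69 TPM in PFOS20 larvae and 563.9 ± 12.6 TPM in control larvae (SD). It was not called (adjusted p = 0.0553 in PFOS20 larvae), but without OBS20 replicate 3 it was called lower in PFOS20 larvae at −0.32 ± 0.10 (adjusted p = 0.044).

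In contrast, idh1 (ENSDARG00000025375) had 52.5, 37.0 and 46.4 TPM in OBS30 larvae, 56.0, 64.6 and 65.2 TPM in OBS20 larvae and 65.4, 70.8 and 56.2 TPM in PFOS20 larvae, against 78.0, 82.4 and 74.7 TPM in control larvae. Every exposed library lay below every control library, and the OBS30 libraries were the lowest. Its log2 change was −0.79 ± 0.13 in OBS30 larvae (adjusted p = 0.0041, a ratio of means of 0.578), a call that held with every library left out in turn. It was −0.34 ± 0.13 in OBS20 larvae (adjusted p = 0.38) and −0.29 ± 0.13 in PFOS20 larvae (adjusted p = 0.16), neither of which was called. A locus with the same protein match, MSTRG.38905, had 46.5, 56.2 and 45.9 TPM in OBS30 larvae, 61.9, 62.3 and 52.2 TPM in OBS20 larvae and 55.4, 58.0 and 62.1 TPM in PFOS20 larvae, against 92.1, 68.3 and 75.1 TPM in control larvae. It too was lower in every exposed library than in every control library. It fell in OBS30 larvae with a log2 change of −0.65 ± 0.13 (adjusted p = 0.01), or 0.0502 without OBS30 replicate 4. The change in PFOS20 larvae, −0.41 ± 0.13, had an adjusted p of 0.0499 and was called only with all libraries or without OBS20 replicate 3, OBS30 replicate 3 or control replicate 3 (adjusted p up to 0.17, without control replicate 2).

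The sum of idh1 with both of its loci was 111, 103 and 104 TPM in OBS30 larvae, against 179, 156 and 154 TPM in control larvae. The OBS30 sums were the lowest of all 12, and the summed log2 change was −0.61 ± 0.09 (adjusted p = 0.0015). In OBS20 larvae the summed change was −0.29 ± 0.09 (adjusted p = 0.19) and in PFOS20 larvae −0.26 ± 0.09 (adjusted p = 0.067), and neither was called. The smaller of the loci, MSTRG.38725, at 4.4 to 20.8 TPM, was called only without OBS20 replicate 3, where it was higher in PFOS20 larvae (adjusted p = 0.03). All 5 entries annotated as NADP-dependent isocitrate dehydrogenase, idh2 and MSTRG.11379 included, summed to 1488 to 1691 TPM in PFOS20 larvae. This overlapped the control sums of 1485 to 1526 TPM. The sums were 1356 to 1442 TPM in OBS30 larvae and 1385 to 1495 TPM in OBS20 larvae.

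Oxoglutarate dehydrogenase, the next NADH-forming step, has its E1 subunit encoded by ogdha, ogdhb and ogdhl and its E2 subunit by dlst. The gene ogdha (ENSDARG00000034270) had 60.4, 62.8 and 68.1 TPM in OBS30 larvae, 53.4, 59.0 and 33.5 TPM in OBS20 larvae and 58.8, 67.0 and 63.5 TPM in PFOS20 larvae, against 50.9, 46.1 and 45.1 TPM in control larvae. The OBS30 and PFOS20 libraries lay above the control libraries, while OBS20 replicate 3 was the lowest of all. The log2 change of ogdha was 0.42 ± 0.17 in OBS30 larvae (adjusted p = 0.19), 0.00 ± 0.17 in OBS20 larvae and 0.41 ± 0.17 in PFOS20 larvae (adjusted p = 0.13), and none was called. Without OBS20 replicate 3 it was called higher in OBS30 larvae at 0.42 ± 0.08 (adjusted p = 0.01) and in PFOS20 larvae at 0.41 ± 0.08 (adjusted p = 0.0069). Its scarcer paralogue ogdhb, at 4.55 to 11.9 TPM, was not called. The remaining gene, ogdhl, named after its values were seen, had 1.51, 29.2 and 1.91 TPM in OBS30 larvae, 1.97, 1.64 and 0.980 TPM in OBS20 larvae and 0.940, 0.930 and 1.66 TPM in PFOS20 larvae, against 1.54, 1.34 and 1.59 TPM in control larvae. Only OBS30 replicate 3 departed from the low level of the other 11 libraries, and the log2 change of 1.28 ± 0.73 in OBS30 larvae was not called (adjusted p = 0.36).

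The entry dlst varied widely within groups, from 25.2 to 72.9 TPM, and was not called. Its paired locus MSTRG.34614 had 134, 153 and 150.1 TPM in OBS30 larvae, 117, 154 and 118 TPM in OBS20 larvae and 154, 160.1 and 169 TPM in PFOS20 larvae, against 99.5, 133 and 108 TPM in control larvae. The locus rose in PFOS20 larvae with a log2 change of 0.51 ± 0.13 (adjusted p = 0.021), a call lost without PFOS20 replicate 3 or 4 or control replicate 2 or 4 (adjusted p up to 0.081). The pair summed to 192, 183 and 185 TPM in OBS30 larvae, 182, 179 and 184 TPM in OBS20 larvae and 211, 213 and 196 TPM in PFOS20 larvae, against 172, 170.5 and 157 TPM in control larvae. The SD was smaller for the sum than for the gene entry in all 4 groups, and the PFOS20 sums were the highest. The summed change was 0.31 ± 0.07 in PFOS20 larvae (adjusted p = 0.0089), 0.16 ± 0.07 in OBS30 larvae (adjusted p = 0.18) and 0.13 ± 0.07 in OBS20 larvae (adjusted p = 0.57), with only the PFOS20 change called.

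Succinate-CoA ligase, which forms ATP or GTP directly, pairs the alpha subunit of suclg1 with a beta subunit of sucla2 or suclg2. The alpha subunit gene suclg1 (ENSDARG00000052712) had 241, 220.0 and 228 TPM in OBS30 larvae, 221, 222 and 234 TPM in OBS20 larvae and 272, 281 and 260.2 TPM in PFOS20 larvae, against 220.3, 218 and 197 TPM in control larvae. The PFOS20 libraries lay above all others, with a log2 change of 0.36 ± 0.07 (adjusted p = 0.0059). The changes in OBS30 larvae, 0.12 ± 0.07, and OBS20 larvae, 0.09 ± 0.07, were not called.

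The ATP-forming beta subunit gene sucla2 (ENSDARG00000005359) had 129, 134 and 126 TPM in OBS30 larvae, 120.0, 123 and 93.0 TPM in OBS20 larvae and 132, 136 and 141 TPM in PFOS20 larvae, against 107, 96.7 and 103 TPM in control larvae. All OBS30 and PFOS20 values lay above all control values. Its log2 change was 0.41 ± 0.10 in PFOS20 larvae (adjusted p = 0.02), a call lost without PFOS20 replicate 3 or 4 or control replicate 3 or 4 (adjusted p up to 0.074). In OBS30 larvae it was 0.34 ± 0.10 and not called (adjusted p = 0.076), but it was called without OBS20 replicate 3 (adjusted p = 0.0061), and in OBS20 larvae it was 0.12 ± 0.10. The GTP-forming subunit gene suclg2 was scarce, at 0 to 6.02 TPM, and not called. A locus with the same enzyme annotation, MSTRG.33045, had 16.6, 12.4 and 13.6 TPM in OBS30 larvae, 17.8, 18.3 and 14.2 TPM in OBS20 larvae and 20.7, 17.4 and 15.9 TPM in PFOS20 larvae, against 21.0, 23.5 and 20.0 TPM in control larvae. Its OBS30 libraries lay below the control libraries with a log2 change of −0.57 ± 0.15 (adjusted p = 0.037), and the call was lost without PFOS20 replicate 3, OBS20 replicate 1, OBS30 replicate 3 or 4 or any control library (adjusted p up to 0.14). A further locus, MSTRG.33266, at 11.9 to 26.9 TPM, was not called, and nor was MSTRG.36724, the succinate dehydrogenase locus, at 78.4 to 117 TPM.

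Fumarase is encoded by fh and by CABZ01084963.1, another entry with that annotation. The gene fh (ENSDARG00000075132) had 79.9, 81.0 and 77.0 TPM in OBS30 larvae, 70.3, 78.4 and 68.6 TPM in OBS20 larvae and 88.7, 85.6 and 92.5 TPM in PFOS20 larvae, against 61.3, 58.6 and 61.5 TPM in control larvae. Every exposed library lay above every control library, and the PFOS20 libraries were the highest. Its log2 change was 0.55 ± 0.08 in PFOS20 larvae (adjusted p = 0.0011), 0.39 ± 0.08 in OBS30 larvae (adjusted p = 0.011) and 0.25 ± 0.08 in OBS20 larvae (adjusted p = 0.19, not called). Without control replicate 3 the adjusted p in OBS30 larvae was 0.0516. CABZ01084963.1 averaged 95.6 ± 10.1 TPM in OBS30 larvae, 101.4 ± 18.2 TPM in OBS20 larvae, 119.2 ± 13.1 TPM in PFOS20 larvae and 91.7 ± 7.33 TPM in control larvae (SD), and was not called (adjusted p = 0.083 in PFOS20 larvae), but without OBS20 replicate 3 it was called higher in PFOS20 larvae (adjusted p = 0.029).

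Malate dehydrogenase closes the cycle in mitochondria through mdh2, and its cytosolic forms, encoded by mdh1aa and mdh1ab, work in the malate-aspartate shuttle. The gene mdh2 (ENSDARG00000043371) had 160.2, 158 and 164 TPM in OBS30 larvae, 154, 148 and 162 TPM in OBS20 larvae and 165, 168 and 167 TPM in PFOS20 larvae, against 143, 146 and 141 TPM in control larvae. Every exposed library lay above every control library, by a small amount. The log2 change was 0.22 ± 0.06 in PFOS20 larvae (adjusted p = 0.033), 0.17 ± 0.06 in OBS30 larvae (adjusted p = 0.15) and 0.11 ± 0.06 in OBS20 larvae (adjusted p = 0.63), with only the PFOS20 change called. That call was lost without any library but OBS20 replicate 2, OBS20 replicate 3 and OBS30 replicate 1 (adjusted p up to 0.1, without PFOS20 replicate 3).

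The cytosolic gene mdh1ab (ENSDARG00000103849) had 86.5, 83.9 and 81.9 TPM in OBS30 larvae, 86.6, 99.9 and 78.8 TPM in OBS20 larvae and 102, 110.1 and 106 TPM in PFOS20 larvae, against 74.2, 85.6 and 89.4 TPM in control larvae. PFOS20 values lay above those of all other groups, with a log2 change of 0.35 ± 0.10 (adjusted p = 0.035). This call was lost without any PFOS20 library, OBS30 replicate 3 or 4 or control replicate 2 or 3 (adjusted p up to 0.13). Changes of 0.02 ± 0.10 in OBS30 larvae and 0.09 ± 0.10 in OBS20 larvae were not called. The more abundant mdh1aa, at 421 to 531 TPM, was not called, with a log2 change of 0.14 ± 0.08 in PFOS20 larvae (adjusted p = 0.24).

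In OBS30 larvae, fewer members were called and more of them were lower than control. Those called higher were pdha1a, idh3b and fh, which were also called in PFOS20 larvae. Called lower were pcxb, idh1, pck2, MSTRG.33045, MSTRG.36288 and MSTRG.38905. This made 3 of 41 higher and 6 lower, against 4.73% and 3.7% of all tested entries, or 8.42% in either direction. The median log2 change of the members was 0.06, against 0.02 for all tested entries. The count called higher was 0 without control replicate 3, 1 without control replicate 2 or 4 or any OBS30 library, and 5 without OBS20 replicate 3, and the count called lower was 2 without OBS30 replicate 4 and 3 without control replicate 4. In these fits the share of all entries called higher was 3.27%, 2.95% and 2.87% without control replicate 2, 3 and 4. It was 3.2%, 2.8% and 2.84% without OBS30 replicate 1, 3 and 4, and 7.62% without OBS20 replicate 3. The share called lower was 2.01% without OBS30 replicate 4 and 2.12% without control replicate 4. Under median-of-ratios scaling the OBS30 calls of pdha1a, fh and MSTRG.33045 were lost, with log2 changes of 0.33, 0.36 and −0.60. Whether OBS30 and PFOS20 larvae differed in any member was not tested.

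In OBS20 larvae, 1 of 41 members was called, pck2, which was lower, against 0.681% of all entries higher and 0.805% lower, or 1.49% in either direction. No member was called higher by limma. An unadjusted p below 0.05 in either direction was found for 10 members, and the share of all entries below it was not computed. The median log2 change of the members was 0.04, against −0.08 for all tested entries. Of all calls 45.8% were higher, and 57.7% under quantile normalisation. The call of pck2 was also absent without OBS20 replicate 3, so no member was called in that fit, against 0.985% of all entries higher and 0.662% lower. Under median-of-ratios scaling the log2 change of pck2 was −0.92 and not called (adjusted p = 0.087).

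At 20 mg/L, the only mass concentration given for both compounds, OBS20 larvae had less pdha1a, idh3b, suclg1 and fh than PFOS20 larvae. They had more of the locus paired with pdha1a. This made 1 of 41 members higher and 4 lower, against 5.85% and 3.92% of all tested entries, or 9.77% in either direction. Under median-of-ratios scaling 1 member was higher and 10 lower, against 7.81% and 7.08% of all entries. The calls of suclg1 and fh were lost with this scaling, with log2 differences of −0.34 and −0.37. Under quantile normalisation 1 was higher and 14 lower, against 9.24% and 7.23% of all entries. The median log2 difference of the members, OBS20 minus PFOS20, was −0.12, against 0.04 for all tested entries. Of the 41 members 31 had a negative difference and 10 a positive one, against 54.5% of all entries with a positive difference. For pdha1a the libraries were at 109, 101 and 96.2 TPM in OBS20 larvae and 150.3, 159 and 156 TPM in PFOS20 larvae, a log2 difference of −0.60 ± 0.09 (adjusted p = 0.0034, 95% interval −0.81 to −0.39). It was the only difference of a member called with every library left out in turn. The locus MSTRG.37223 differed the other way, by 0.91 ± 0.22 (adjusted p = 0.025), and the call was lost without PFOS20 replicate 2 or 3 or OBS20 replicate 1 or 2 (adjusted p up to 0.091). Summed, the pair was at 157, 161 and 129 TPM in OBS20 larvae and 168, 185 and 184 TPM in PFOS20 larvae, and the difference of −0.27 ± 0.09 was not called (adjusted p = 0.086).

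The log2 difference between OBS20 and PFOS20 larvae was −0.47 ± 0.13 for idh3b (adjusted p = 0.044), a call that held only without OBS20 replicate 2 among the 12 libraries left out in turn (adjusted p up to 0.15, without OBS20 replicate 1). It was −0.29 ± 0.08 for fh (adjusted p = 0.036), a call that held without OBS20 replicate 2 or 3 and was lost without any of the other 10 libraries (adjusted p up to 0.12, without OBS20 replicate 1). For suclg1 it was −0.27 ± 0.07 (adjusted p = 0.036), lost without PFOS20 replicate 2 or 3, OBS20 replicate 1 or 2, OBS30 replicate 4 or control replicate 2 or 3 (adjusted p up to 0.14). All 3 genes were lower in every OBS20 library than in every PFOS20 library. Over all members, the count called lower was 7 without OBS20 replicate 2, and 1 or 2 with any other library left out except OBS20 replicate 3, where it was 4. The count called higher was 0 without PFOS20 replicate 2 or 3 or OBS20 replicate 1 or 2. In these fits 2.84%, 2.54%, 2.61% and 3.07% of all entries were called higher, in that order. The share called lower was 3.27% without OBS20 replicate 2 and 1.98% to 3.59% in the fits with 1 or 2 members lower.

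Members that were not called still had intervals that reach far from 0. Unlike the adjusted p, all 95% intervals given are not adjusted for the number of entries tested, so an interval without 0 is not a call. For cs the difference was −0.40 ± 0.12 (adjusted p = 0.066, 95% interval −0.67 to −0.13), for idh3a −0.30 ± 0.09 (adjusted p = 0.064, 95% interval −0.50 to −0.10) and for ogdha −0.41 ± 0.17 (adjusted p = 0.18, 95% interval −0.79 to −0.03). The interval was narrower for mdh2, at −0.24 to 0.03, and for dldh, at −0.16 to 0.14. For pck2 the difference was 0.15 ± 0.21 (95% interval −0.32 to 0.61). With OBS20 replicate 3 left out, the count was again 1 higher and 4 lower, with idh2 (−0.25 ± 0.05, adjusted p = 0.011) in place of idh3b. In that fit 16.6% of all entries were higher and 4.51% lower.

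**Figure D4:**
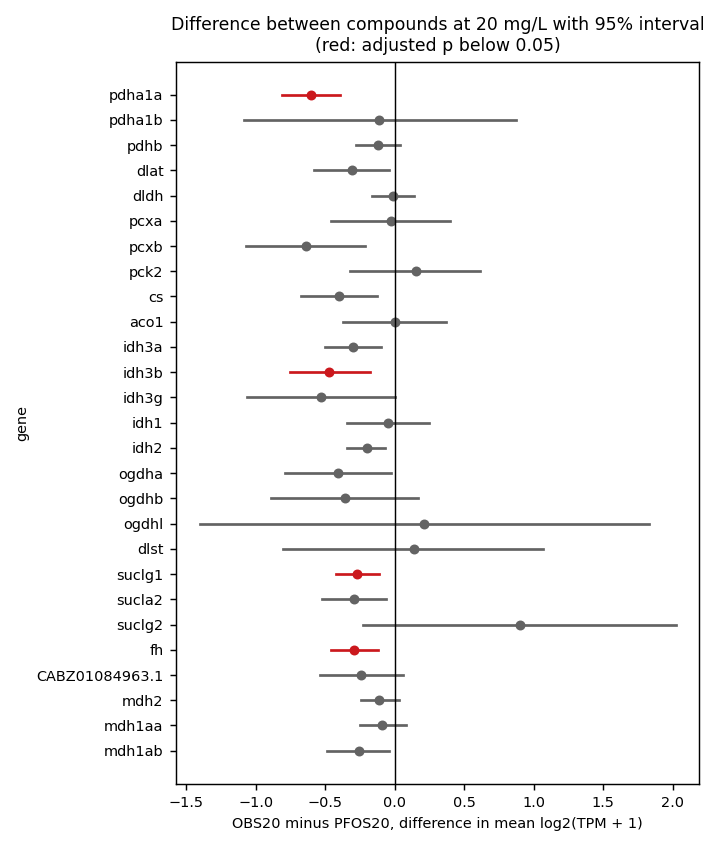
Difference in mean log2(TPM + 1), OBS20 minus PFOS20 larvae at 20 mg/L, for 27 of the 28 tested Ensembl members (points) with its 95% interval (lines), ordered by step of the cycle, with adjusted p below 0.05 in red. The red points are pdha1a, idh3b, suclg1 and fh, all left of 0, and the widest intervals belong to ogdhl, suclg2, pdha1b and dlst.

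Raising the concentration of OBS from 20 to 30 mg/L gave no called member in the limma fit (0 of 41), against 1.11% of all tested entries higher and 0.466% lower, or 1.58% in either direction. Of the members, 6 had an unadjusted p below 0.05, for which the share of all entries was not computed. The smallest adjusted p of a member was 0.15, for idh1, and the median log2 difference was 0.06, against 0.10 for all tested entries. Of all calls 70.5% were higher, and 56.0% under quantile normalisation. The log2 difference of idh1, OBS30 minus OBS20, was −0.45 ± 0.13, with 52.5, 37.0 and 46.4 TPM in OBS30 larvae and 56.0, 64.6 and 65.2 TPM in OBS20 larvae, which did not overlap. For pcxb it was −0.40 ± 0.20 (95% interval −0.83 to 0.04), for fh 0.13 ± 0.08 (95% interval −0.04 to 0.30) and for pdha1a 0.24 ± 0.09 (95% interval 0.04 to 0.45).

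Genes around the cycle were read from 6 lists of enzymes and carriers. The counts on these lists, and of the tissue markers below, stand beside the share of all tested entries called in either direction. Against control this share was 18.3% in PFOS20 larvae, 1.49% in OBS20 larvae and 8.42% in OBS30 larvae. It was 9.77% for OBS20 against PFOS20 larvae and 1.58% for OBS30 against OBS20 larvae. On the list of pyruvate entry and its control, 5 of 13 tested genes were higher than control in PFOS20 larvae and 4 in OBS30 larvae, and none was lower. These include genes of pyruvate dehydrogenase kinases, which phosphorylate the E1 alpha subunit and switch the complex off. The kinase genes called were pdk2b and pdk4 in PFOS20 larvae, and pdk2a, pdk2b and pdk4 in OBS30 larvae. No other kinase gene on the list was called against control. The kinase gene pdk4 averaged 35.4 ± 3.90 TPM in OBS30 larvae and 15.9 ± 2.17 TPM in control larvae (SD), a log2 change of 1.11 ± 0.22 (adjusted p = 0.012), and 32.7 ± 3.49 TPM in PFOS20 larvae, a change of 0.99 ± 0.22 (adjusted p = 0.012). The kinase gene pdk2b averaged 453.7 ± 81.1 TPM in OBS30 larvae, 260 ± 10.21 TPM in OBS20 larvae, 486 ± 66.7 TPM in PFOS20 larvae and 254.9 ± 31.1 TPM in control larvae (SD). It rose by a log2 change of 0.82 ± 0.14 in OBS30 larvae (adjusted p = 0.0048) and 0.93 ± 0.14 in PFOS20 larvae (adjusted p = 0.0018), and was the only gene on the list called between OBS30 and OBS20 larvae, at 0.79 ± 0.14 (adjusted p = 0.023). Another kinase gene, pdk2a, rose in OBS30 larvae by 0.80 ± 0.22 (adjusted p = 0.0491), and the lactate dehydrogenase gene ldhbb in PFOS20 larvae by 0.52 ± 0.15 (adjusted p = 0.041). In OBS20 larvae none of the 13 was called against control, while pdk2b (−0.89 ± 0.14), pdk4 (−0.80 ± 0.22) and ldhba (−0.26 ± 0.07) were lower than in PFOS20 larvae (adjusted p = 0.0037, 0.048 and 0.034).

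The list of glutamine, glutamate and aspartate entry had 12 tested genes. In PFOS20 larvae 1 was called, got2b, a mitochondrial aspartate aminotransferase, which rose by a log2 change of 0.28 ± 0.06 (adjusted p = 0.0099). In OBS30 larvae 1 was called, the glutaminase gene gls2b, which fell to 5.8 ± 0.956 TPM in OBS30 larvae, against 10.9 ± 1.07 TPM in control larvae (SD), a log2 change of −0.81 ± 0.18 (adjusted p = 0.017). Between OBS20 and PFOS20 larvae the glutamate dehydrogenase gene glud1b was lower in OBS20 larvae by −0.41 ± 0.10 (adjusted p = 0.026).

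Of 7 tested genes for mitochondrial carriers of cycle intermediates, slc25a12, an aspartate-glutamate carrier, rose by 0.55 ± 0.10 in OBS30 larvae (adjusted p = 0.0054) and 0.65 ± 0.10 in PFOS20 larvae (adjusted p = 0.0016) on the log2 scale. The oxoglutarate-malate carrier gene slc25a11 rose in PFOS20 larvae by 0.35 ± 0.08 (adjusted p = 0.015). The citrate carrier gene slc25a1a fell in PFOS20 larvae by a log2 change of −0.75 ± 0.13 (adjusted p = 0.004), and the dicarboxylate carrier gene slc25a10 fell in OBS30 larvae, with −0.47 ± 0.13 (adjusted p = 0.046). Relative to PFOS20 larvae, OBS20 larvae had more slc25a1a (0.54 ± 0.13, adjusted p = 0.03) and less slc25a1b, its paralogue (−0.69 ± 0.16, adjusted p = 0.02).

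Lipoate is the cofactor of the E2 subunits, and 1 of 5 tested genes for its synthesis and attachment was called, lias, the lipoyl synthase gene. It averaged 23.4 ± 1.94 TPM in OBS30 larvae, 21.7 ± 0.881 TPM in PFOS20 larvae and 14.9 ± 1.22 TPM in control larvae (SD), with log2 changes of 0.61 ± 0.10 (adjusted p = 0.0037) and 0.51 ± 0.10 (adjusted p = 0.0063). Among 14 genes of mitochondrial biogenesis, only twnk, the helicase of mitochondrial DNA, was called in any of the 5 comparisons, and it fell in PFOS20 larvae by a log2 change of −0.63 ± 0.16 (adjusted p = 0.023).

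The genes that the choice of members left out, without aclya and aclyb, form a list of 10 tested genes with the assembly factors of succinate dehydrogenase. In PFOS20 larvae 2 were higher than control and none lower: sdhaf2, an assembly factor of succinate dehydrogenase, at 0.94 ± 0.23 (adjusted p = 0.018), and the subunit gene sdhdb at 0.28 ± 0.08 (adjusted p = 0.032). None of the 10 was called in OBS30 or OBS20 larvae against control. For aclya and aclyb no fitted change was read. In OBS30 and OBS20 larvae aclyb averaged 4.49 ± 0.452 and 2.52 ± 0.446 TPM (SD). In PFOS20 and control larvae it averaged 4.27 ± 0.0929 and 2.35 ± 0.697 TPM (SD). The averages of aclya were 27.2 ± 2.94 TPM in OBS30 larvae and 25.3 ± 7.03 TPM in OBS20 larvae (SD). They were 20 ± 4.08 TPM in PFOS20 larvae and 28.3 ± 2.17 TPM in control larvae (SD). Compared with PFOS20 larvae, OBS20 larvae had less sdhaf2 (−1.02 ± 0.23, adjusted p = 0.019) and less pck1, at 227.7 ± 18.4 TPM in OBS20 larvae and 343.5 ± 31.8 TPM in PFOS20 larvae (SD; log2 difference −0.59 ± 0.15, adjusted p = 0.034).

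Markers of several tissues moved with the exposures, and in whole larvae fewer cells of a type and less RNA per cell cannot be told apart. In PFOS20 larvae, where 12 members were higher, 10 of 12 neuron markers, 6 of 7 tested red cell markers and all 12 cycling cell markers were lower than control, and none of these was higher. Summed neuron markers were at 457.2 to 746.6 TPM in PFOS20 larvae and 1140 to 1216 TPM in control larvae. Summed red cell markers were at 1774 to 2255 TPM in PFOS20 larvae and 3344 to 3463 TPM in control larvae, and cycling cell markers at 365.4 to 419 TPM in PFOS20 larvae and 615.7 to 644.2 TPM in control larvae. These sums did not overlap between the groups. Between OBS20 and PFOS20 larvae, 10 of 12 neuron markers, 3 of 7 red cell markers and 6 of 12 cycling cell markers were higher in OBS20 larvae, with summed neuron markers at 875.3 to 1206 TPM there. In the same comparison 6 of 13 hepatocyte markers were lower in OBS20 larvae and 1 was higher, with a median log2 difference of −0.78, and their sums were at 6374 to 6552 TPM in OBS20 larvae and 6684 to 7180 TPM in PFOS20 larvae. Of 6 tested heart muscle markers 2 were lower in OBS20 larvae and none higher, and of 14 skeletal muscle markers 4 were higher and none lower.

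Skeletal muscle markers summed to 79138 to 86655 TPM in OBS30 larvae, 79779 to 97155 TPM in OBS20 larvae, 66024 to 75769 TPM in PFOS20 larvae and 76552 to 81338 TPM in control larvae. The PFOS20 sums alone lay below all control sums. Of 14 tested, 3 were higher and 1 lower than control in OBS30 larvae, 2 higher and none lower in OBS20 larvae, and 1 higher and 1 lower in PFOS20 larvae. Heart muscle markers summed to 121.1 to 127.2 TPM in OBS30 larvae, 101.9 to 109.8 TPM in OBS20 larvae, 93.5 to 158.5 TPM in PFOS20 larvae and 110.5 to 127.6 TPM in control larvae, and the OBS20 sums alone lay below all control sums. Of the 6 tested heart markers, the natriuretic peptide genes nppa and nppb were called higher than control in OBS30 larvae, by log2 changes of 1.39 ± 0.18 and 1.52 ± 0.28 (adjusted p = 8.6e-04 and 0.0064), and in PFOS20 larvae, by 1.60 ± 0.18 and 2.09 ± 0.28 (adjusted p = 3.5e-04 and 8.5e-04). The other 4 were not called, and in OBS20 larvae none of the 6 was. Hepatocyte markers, set beside the lower idh1, pcxb and pck2 of OBS30 larvae, were called lower for 9 of 13 and higher for 1 in OBS30 larvae, lower for 8 in OBS20 larvae, and lower for 4 and higher for 1 in PFOS20 larvae. Their sum was 4824 to 5687 TPM in OBS30 larvae, 6374 to 6552 TPM in OBS20 larvae, 6684 to 7180 TPM in PFOS20 larvae and 8377 to 10419 TPM in control larvae, below control in every exposed library. Ionocyte markers summed to 243.1 to 259.6 TPM in OBS30 larvae, 166.4 to 219.6 TPM in OBS20 larvae, 198 to 223.7 TPM in PFOS20 larvae and 192.6 to 206.5 TPM in control larvae. No marker found in the table was at 0 in all libraries, and the part of any of these markers in the changes of the citrate cycle genes was not tested.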

How the data were processed

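Poly(A) RNA of 12 libraries, 3 per group, was measured by paired-end sequencing, per the labels' protocols. The authors deposited TPM per gene and locus in 1 table, and the submitters' processing notes name HISAT2, StringTie, RSEM and the assembly GRCz11, with no versions or roles. Per the file headers, the table also gives lengths, group means by the authors (within 3.3e-05 TPM of the means recomputed here, and not tested), KEGG maps and best protein matches. It holds 32520 Ensembl entries and 12147 other loci. Of the 29 Ensembl members, 28 were found in the reference table of names, and no positions or sequences are given, because no genome of this build was used here. Without counts the depth is unknown, so no counting interval or detection floor is given and 3 libraries per group limit the precision. TPM are shares of a whole, so a large change in a few abundant transcripts moves all others.

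All entries with at least 1 TPM in at least 3 libraries (30674) were fitted as log2(TPM + 1) in limma 3.58.1 (R 4.3.3), with 1 term per group over all 12 libraries (8 residual degrees of freedom) and eBayes with a mean-variance trend. The 5 contrasts were two-sided and adjusted by Benjamini-Hochberg within each. The script was tested on simulated data. Samples were grouped by their titles and treatment labels. The labels do not say what a replicate number marks, so the numbers were not taken to pair the samples. Between compared groups, deviations correlated at −0.115 to 0.101 for same-numbered libraries and −0.186 to 0.25 for others. With 3 libraries per group these correlations cannot show or exclude a pairing.

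Values in every library are given for members called in at least 1 contrast and for cs, idh3a, ogdha, pdha1a and mdh2. From each list of other genes and each contrast, up to 3 called genes per direction with the largest changes are named. Markers are given as counts and sums. The values of a single member, which is in the counts, are not reported here. The members, the lists and the tests were chosen with earlier results of these data known. The alternatives changed the scaling (median-of-ratios or quantile), the pseudocount (0.1), the filter (none, or 5 TPM on average), the weights (array weights) or the samples (each library left out, or the 6 libraries compared alone), or added the replicate number as a block. Summed entries of the same protein and a count of Ensembl members alone were added after the data were seen.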

Additional observations from a re-analysis of the deposited data

How the results depend on the processing

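No change of a named member that was called reversed its direction under any alternative in which its own entry was fitted. Paired loci have no entry of their own where entries are summed, and are not counted below for it. In PFOS20 larvae against control, MSTRG.37223 fell (−0.87) but its sum rose (0.36), and MSTRG.36352 rose (0.62) but its sum fell (−0.25, not called). In OBS20 against PFOS20 larvae MSTRG.37223 was higher (0.91) but its sum was lower (−0.27, not called). The other called loci with a pair kept their direction in the sum. With a library left out, 236 of the 372 values of called members kept their call and 136 lost it, and under the other alternatives 219 of 269 kept it and 50 lost it. Over the 12 fits that leave out 1 library each, members called higher and lower numbered 5 to 17 and 2 to 6 in PFOS20 larvae against control, 0 to 0 and 0 to 1 in OBS20 larvae, 0 to 5 and 2 to 7 in OBS30 larvae, 0 to 1 and 1 to 7 in OBS20 against PFOS20 larvae, and 0 to 0 in both directions in OBS30 against OBS20 larvae. Over these fits the shares of all entries called higher and lower were 3.67% to 9.22% and 6.27% to 19.2% in PFOS20 larvae. They were 0.323% to 0.985% and 0.401% to 0.769% in OBS20 larvae, and 2.8% to 7.62% and 2.01% to 5.3% in OBS30 larvae. They were 2.54% to 16.6% and 1.98% to 4.51% in OBS20 against PFOS20 larvae, and 0.333% to 0.985% and 0.124% to 0.408% in OBS30 against OBS20 larvae. With the replicate number as a block, the counts higher and lower against control were 7 and 1 for PFOS20, 0 and 0 for OBS20, and 0 and 2 for OBS30. They were 0 and 2 for OBS20 against PFOS20, and 0 and 0 for OBS30 against OBS20. The shares of all entries were, in that order, 4.22% and 7.63%, 0.222% and 0.222%, 2.15% and 1.6%, 2.62% and 1.9%, and 0.352% and 0.0815%. The libraries of a block share only a number. Array weights, which gave OBS20 replicate 3 a weight of 0.137 and did not reach their convergence tolerance, gave 20 and 8 for PFOS20, 1 and 4 for OBS20 and 8 and 7 for OBS30 against control, and 3 and 16 for OBS20 against PFOS20. The shares of all entries called higher and lower with these weights were 14.5% and 27.6% for PFOS20, 2.76% and 2.15% for OBS20, 10.9% and 7.53% for OBS30, and 26.7% and 10.9% for OBS20 against PFOS20. Median-of-ratios scaling left 2 members lower in PFOS20 larvae and 10 in OBS20 against PFOS20 larvae, against 11.7% and 7.08% of all entries. Quantile normalisation gave 2 lower in OBS20 larvae against control and 14 against PFOS20, against 0.831% and 7.23% of all entries. A mean of at least 5 TPM gave 2 and 8 of 37 tested members, against 1.34% and 7.07% of all entries. Without a filter no member was called in OBS20 larvae (0), as with only the 6 libraries compared (0), which left 0 higher and 1 lower in OBS20 against PFOS20 larvae. Without a filter 0.465% of all entries were higher and 0.627% lower in OBS20 larvae. With only the 6 libraries compared these shares were 0.179% and 0.176% in OBS20 larvae, and 0.737% and 1.14% in OBS20 against PFOS20 larvae. The 6-library fit gave 15 members higher and 3 lower in PFOS20 larvae against control, against 7.04% and 14.7% of all entries. In OBS30 larvae it gave 4 higher and 6 lower, against 6.55% and 4.83%. With entries of the same protein summed, 11 of 33 tested members were higher in PFOS20 larvae against control, against 6.35% of all entries. In that fit 1 was lower in PFOS20 larvae and 0 higher in OBS20 against PFOS20 larvae, against 11.9% and 5.85% of all entries. With Ensembl members alone these were 1 and 0, against the same shares, with 3 lower in OBS30 larvae, against 3.7%. The cause of these moves was not tested, except that the last 2 settings and the 5 TPM filter hold fewer members and the 6-library fit fewer samples.

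Among single entries, the values that reversed were small and not called. In OBS20 against control larvae the fits with 1 library left out gave log2 changes of −0.16 to 0.24 for ogdha, −0.15 to 0.10 for cs and −0.01 to 0.13 for idh3a. In OBS20 against control larvae, the log2 change of ogdha was 0.03 under quantile normalisation, 0.09 under median-of-ratios scaling, 0.18 under array weights, 0.24 without OBS20 replicate 3 and 0.05 without control replicate 2. That of cs was 0.05 under median-of-ratios scaling, 0.05 under array weights and 0.10 without OBS20 replicate 3, and that of idh3a was −0.01 without OBS20 replicate 2. In OBS30 against OBS20 larvae the log2 difference of mdh2 was −0.07 under median-of-ratios scaling. Depth is unknown, so no limit from it can be given.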
